A study of Mus musculus with 4 samples.

Results

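Mitosis and DNA replication genes were followed in mouse testis by single-cell RNA sequencing, as 34 listed gene symbols among 31017 in the deposited tables. Of these, 22 act in mitosis and 12 in DNA replication. The members were set by name, with earlier results of these data known. The study had 4 libraries, 1 per group, all from Acr-Gfp tg mice on C57BL/6, in which the promoter of the germ cell gene Acr drives green fluorescent protein. The 9 dpp and 14 dpp groups were testes taken at 9 and 14 days postpartum (dpp) without culture. The 2-day and 7-day culture groups were testes taken at 7 dpp, cut into fragments and cultured for 2 or 7 days on agarose gel, in α-MEM supplemented with AlbuMAX, beneath a ceiling chip. The 2-day culture was set against 9 dpp and the 7-day culture against 14 dpp, since age at removal and culture time then add up to the same age. The number of animals behind each library is not given in the sources used here, and no library has a replicate, so culture and library cannot be told apart.

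A cell that divides first copies its DNA and then separates the copies. Replication starts where the helicase Mcm2 to Mcm7 is loaded with the help of Cdt1, which Gmnn holds back. Pcna is the sliding clamp of the polymerases, and Rrm1, Rrm2 and Tyms make the building blocks of DNA. In mitosis Cdk1, Plk1, Aurka and Aurkb are the leading kinases, kinetochore proteins tie chromosomes to the spindle, and Cdc20 and Ube2c start the breakdown of cyclin B at anaphase. In the young testis spermatogonia divide by mitosis before meiosis begins, and Sertoli cells divide until about puberty. Many mitosis genes are known to be held by the DREAM complex through a CHR element and by NF-Y through CCAAT boxes, and many replication genes by E2F.

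The promoters of a few members are shown because the 2 lists differed in these letters. RefSeq on GRCm38.p6 gave a promoter of 300 bases (250 before and 50 after the start) for 30 of the 34 members, and none was taken for Tpx2, Aurkb, Mcm4 and Gmnn. Mcm7 has 2 entries there, of which the first was used. The 140 bases that end just before the start are printed 5′ to 3′. Capitals mark CHR letters (TTTGAA), boxes of the letters CCAAT and E2F letters, each on either strand. The E2F letters searched were TTCCCGC (as in Rrm1), TTCGCGC (as in Cdk1), TTGGCGC (as in Mcm6) and TTGCCGC (in none of those printed).
Cdk1 (chr10:69352913-69353052, - strand): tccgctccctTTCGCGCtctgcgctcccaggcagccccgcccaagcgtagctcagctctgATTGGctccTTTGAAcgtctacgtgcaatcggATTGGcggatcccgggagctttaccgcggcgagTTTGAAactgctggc
Top2a (chr11:99024190-99024329, - strand): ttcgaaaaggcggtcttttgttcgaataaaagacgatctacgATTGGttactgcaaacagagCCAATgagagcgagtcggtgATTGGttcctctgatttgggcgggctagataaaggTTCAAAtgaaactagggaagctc
Cdc20 (chr4:118437344-118437483, - strand): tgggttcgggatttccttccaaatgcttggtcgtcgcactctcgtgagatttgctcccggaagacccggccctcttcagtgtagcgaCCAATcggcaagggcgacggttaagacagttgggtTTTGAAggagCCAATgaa
Ube2c (chr2:164769789-164769928, + strand): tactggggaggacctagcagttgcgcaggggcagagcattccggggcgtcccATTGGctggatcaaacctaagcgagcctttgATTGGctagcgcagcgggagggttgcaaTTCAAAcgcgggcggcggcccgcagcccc
Mcm6 (chr1:128359706-128359845, - strand): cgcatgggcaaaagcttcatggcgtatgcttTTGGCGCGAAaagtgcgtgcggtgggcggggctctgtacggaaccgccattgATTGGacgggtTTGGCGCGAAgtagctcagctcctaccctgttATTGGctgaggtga
Rrm1 (chr7:102441555-102441694, + strand): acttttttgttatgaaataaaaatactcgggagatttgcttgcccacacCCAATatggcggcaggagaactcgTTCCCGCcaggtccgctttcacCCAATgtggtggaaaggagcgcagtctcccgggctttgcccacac

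Each printed mitosis promoter holds CHR letters close to the start and at least 2 CCAAT boxes. In Top2a the CHR letters begin at position -23, in Cdc20 at -18 and in Ube2c at -29, counted from the start. Cdk1 has them at -71 and -15 and also holds E2F letters at -130. The printed Mcm6 promoter has no CHR letters and a pair of E2F runs, in each of which matches of both strands overlap, and Rrm1 has E2F letters at -67. Over the whole 300 bases, CHR letters were in 14 of 20 mitosis promoters (70.0%) and in 1 of 10 replication promoters (10.0%, Mcm2), against 17.9% of all 32851 promoters. E2F letters were in 3 of 20 mitosis promoters (15%; Mki67, Cdk1 and Hmmr) and in 7 of 10 replication promoters (70.0%), against 9.57% of all. CCAAT boxes were common in both lists, at 75% and 80% against 37.4% of all. CHR and CCAAT letters stood together in 65.0% of mitosis promoters, 10.0% of replication promoters and 6.95% of all. In 8 of the 14 mitosis promoters with CHR letters they lay only after the start: with the 150 bases before the start alone, CHR letters were in 30% of mitosis promoters and 9.07% of all, CHR with CCAAT letters in 30% and 2.24%, and E2F letters in 30% of replication promoters and 5.47% of all. A match in letters describes the sequence and is not a measured binding site.

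The libraries held 34491701 to 60829941 unique molecular identifiers (UMIs, each counting 1 captured transcript), and 4816 to 6877 cells each were kept. Any pair of libraries shared 29 to 75 cell barcodes, at most 1.26% of the smaller library. Cells were classed by marker UMIs as germ (2510 to 3641 cells a library), Sertoli (532 to 1146), stromal with myoid (1070 to 2445) or Leydig (27 to 41), and 189 to 486 stayed without a class. Pericyte (0 to 4 cells), endothelial (17 to 33) and macrophage (10 to 44) classes were also set and were not followed on their own. Levels are in CPM, a gene's UMIs per 1000000 UMIs of the class. The Sertoli class held Sox9 at 234 to 519 CPM and Cldn11 at 967.5 to 1768 CPM, but Amh at 34.8 CPM and Fshr at 6.54 CPM in the 2-day culture, against 760 and 20.3 CPM at 9 dpp. The Leydig class held Cyp11a1 at 5274 to 6773 CPM, with Cyp17a1 at 68.2 CPM after 2 days of culture and 5348 CPM at 9 dpp, while Hsd3b6 was at 0 in 2 libraries. The median depth of a Sertoli cell was 3398.5 UMIs after 2 days of culture, 9137.5 after 7 days, 14132 at 9 dpp and 9530 at 14 dpp. Shares of cells are therefore given after thinning each cell to 2000 UMIs. All intervals are 95% and cover counting error only. Fewer cells of a kind and less RNA per cell cannot be told apart in such sums.

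Germ cells had the highest level of both lists in every library. Summed over the 22 mitosis genes, germ cells had 2993 CPM at 9 dpp, 3235 after 2 days of culture, 3291 at 14 dpp and 3615 after 7 days of culture. In stromal cells it was 1028, 757, 359 and 215 CPM in the same order, and in Sertoli cells 834, 181, 495 and 233 CPM. The summed replication level in germ cells was 1932, 2113, 1733 and 1530 CPM in the order 9 dpp, 2-day culture, 14 dpp, 7-day culture. It was 592, 433, 327 and 225 CPM in stromal cells and 411, 315, 258 and 257 CPM in Sertoli cells. Leaving out the few Leydig cells, the order was germ, stromal, Sertoli at 9 dpp and in the 2-day culture, for both lists. At 14 dpp and in the 7-day culture Sertoli cells were above stromal cells in the mitosis sum, and in the 7-day culture in both sums. Without the amount that germ marker UMIs would bring along at the ratio of germ cells, given with the Sertoli results, this order turned. The mitosis sum was then 57.7 CPM in Sertoli and 309 in stromal cells at 14 dpp, and 110 and 193 CPM after 7 days of culture. The replication sum of the 7-day culture was then 205 and 216 CPM. At 14 dpp the Sertoli value adds up genes above and below that amount and is no level of its own.

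**Figure D1:**
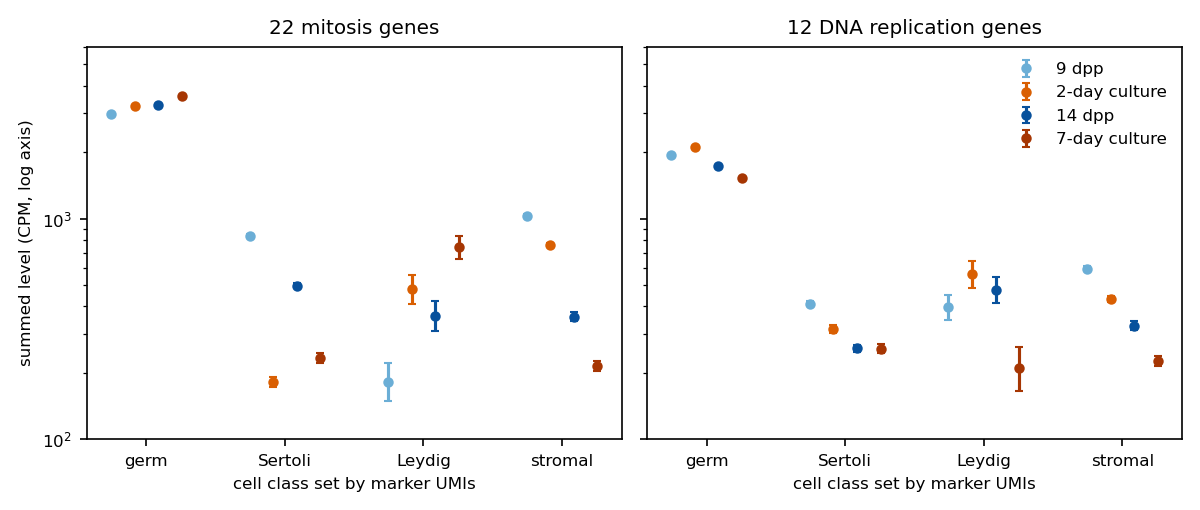
Summed level of the 22 mitosis genes (left) and the 12 DNA replication genes (right) in CPM on a log axis, by cell class; points are libraries and bars are exact 95% Poisson intervals, which cover counting error only. The Sertoli mitosis sum is 834 CPM for 9 dpp against 181 CPM for the 2-day culture, while germ cells lie between 2993 and 3615 CPM in all 4 libraries.

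In Sertoli cells the mitosis genes were lower in the 2-day culture, and the replication genes less so. Against 9 dpp, the 2-day culture had a lower mitosis sum, with a log2 ratio of -2.20 (interval -2.29 to -2.12), while the ratio of the replication sum was -0.39 (-0.46 to -0.31). All 34 members had at least 50 UMIs over the 2 libraries, and 21 were at least 2-fold lower in culture on the log2(CPM + 1) scale: 20 of 22 mitosis genes and Rrm2 alone of 12 replication genes. Over all 11216 genes tested in Sertoli cells 6.06% were that much lower and 6.1% that much higher, and no member was higher by as much. The median log2 ratio was -1.998 for mitosis genes and -0.57 for replication genes, against -0.11 over all genes.

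Among the chromosome proteins, Top2a, the topoisomerase that untangles sister DNA, had 9.89 CPM after 2 days of culture, 15.5 after 7 days, 70.3 at 9 dpp and 45.4 at 14 dpp. Both cultures were below both testes, with log2 ratios of -2.71 for the 2-day pair and -1.49 for the 7-day pair. Mki67, which coats mitotic chromosomes and is the usual marker of cycling cells, had 4.22, 3.99, 19.9 and 7.84 CPM in the same order of libraries (log2 -2.004 and -0.82; the 7-day ratio was 0.02 when 95% of a cell's marker UMIs, and not 80%, had to come from its class).

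Among the kinases, Cdk1 had 20.7 CPM after 2 days of culture, 37.0 after 7 days, 102 at 9 dpp and 114 at 14 dpp. Its ratios were -2.26 and -1.60, and it was the member whose smaller ratio over both pairs was largest in Sertoli cells. The 2-day ratios of Plk1, Aurka and Aurkb were -1.99, -1.99 and -2.15. Bub1, a spindle checkpoint kinase, differed least of the mitosis genes there, at 8.14 CPM against 10.3 CPM (log2 -0.31), and Melk just missed the 2-fold mark at -0.97. Bub1b, which delays anaphase until chromosomes are attached, had -1.41.

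Ube2c, the ubiquitin carrier of the anaphase complex, had the widest gap of all members, 10.2 CPM after 2 days of culture against 98.9 CPM at 9 dpp (log2 -3.16). Its partner Cdc20 had 16.9 and 53.1 CPM (log2 -1.60). Of the kinetochore and centromere genes, Birc5 (survivin) had -2.31, Cenpf -1.85, Knstrn -1.80 and Cenpe -1.24, and Cenpa, the histone variant of centromeres, had 17.02 against 71.2 CPM. Tpx2, which nucleates spindle microtubules and activates Aurka, had 16.6 CPM after 2 days of culture, 34.6 after 7 days, 78.3 at 9 dpp and 83.2 at 14 dpp (log2 -2.17 and -1.24). The other spindle genes Nusap1, Hmmr, Kif11, Kif23 and Kif20b ranged from -2.80 (Nusap1) to -1.30 (Kif20b) in the 2-day pair.

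Replication genes of Sertoli cells were closer between the groups. Rrm2, the regulated subunit of ribonucleotide reductase, had 6.98 CPM after 2 days of culture, 6.45 after 7 days, 18.7 at 9 dpp and 12.9 at 14 dpp (log2 -1.30 and -0.90). Rrm1, its partner subunit, went the other way, with 75.3, 55.9, 58.5 and 28.5 CPM (log2 0.36 and 0.95). Mcm5 (10.5, 8.29, 20.3 and 14.4 CPM) and Gmnn (35.5, 30.9, 54.0 and 51.0 CPM) were lower in culture in both pairs. With the stricter class share of 95% the 7-day ratios of Rrm2 and Mcm5 turned to 0.34 and 0.42. With the germ marker amount subtracted Gmnn turned too in that pair, at 21.05 CPM in culture and 8.49 at 14 dpp, and nothing was left of Mcm5 and Rrm2 at 14 dpp. Mcm6 (log2 -0.07), Mcm4 (-0.23) and Mcm7 (-0.27) were the helicase subunits nearest to 0 in the 2-day pair, and Mcm2 and Mcm3 had -0.85 and -0.91. Cdt1 (-0.63 and 0.67) and Tyms (-0.55 and 0.23) changed side between the pairs, and Pcna did not (-0.53 and -0.53). With the germ marker amount subtracted, however, Pcna had 13.9 CPM after 7 days of culture and 13.6 at 14 dpp. The share of thinned Sertoli cells with at least 2 replication UMIs was 13.8% after 2 days of culture, 9.20% after 7 days, 15.8% at 9 dpp and 8.53% at 14 dpp, higher in both earlier libraries.

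**Figure D2:**
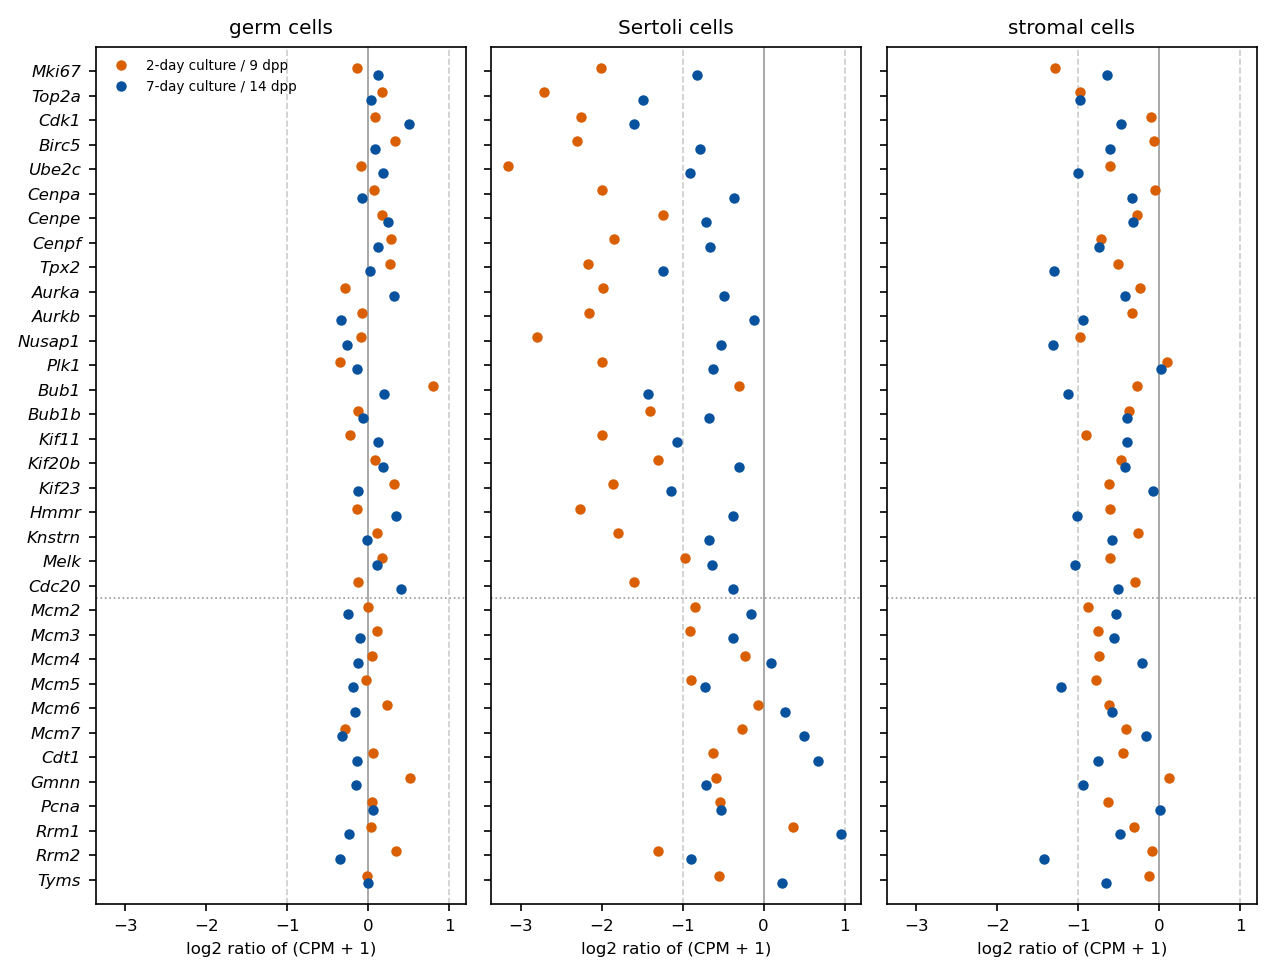
Log2 ratio of CPM + 1 of each of the 34 members in germ, Sertoli and stromal cells, for the 2-day culture over 9 dpp (orange) and the 7-day culture over 14 dpp (blue); dashed lines mark 2-fold and the dotted line parts mitosis (above) from replication genes (below). In Sertoli cells 20 of 22 mitosis genes lie past the lower dashed line for the 2-day pair and 6 do for the 7-day pair, and in germ cells no member passes either line. Points of members under 50 UMIs are drawn but were not counted.

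In the 7-day pair the Sertoli difference was smaller. The log2 ratio of the mitosis sum was -1.09 (-1.17 to -1.01) and that of the replication sum -0.00 (-0.09 to 0.09). With the germ marker amount subtracted the mitosis ratio turned to 0.93 and the replication ratio was 2.92, from 27.1 CPM at 14 dpp and 205 CPM in culture. At 14 dpp 4 of 22 mitosis and 5 of 12 replication genes exceeded that amount. The sums left there thus add up values above and below 0 and are no levels of their own. With the stricter class share the replication ratio was 0.34. Of the 31 members with at least 50 UMIs, 6 were at least 2-fold lower (Top2a, Cdk1, Tpx2, Bub1, Kif11 and Kif23), against 7.91% of all 10807 genes, and none was higher, against 8.53%. With 10 added to CPM in place of 1 the lower members were 3. Of the 6, Top2a, Bub1 and Kif11 were at 14 dpp below the level that germ markers would bring along, at 0.87, 0.81 and 0.69 times it. Plk1, Bub1b and Hmmr had too few UMIs to count. From 9 to 14 dpp the mitosis sum of Sertoli cells was lower, at -0.75 (-0.80 to -0.71), and from 2 to 7 days of culture it was higher, at 0.36 (0.25 to 0.47). The first was -1.20 with the stricter class share and -3.54 with the germ marker amount subtracted, and the second was 0.02 with cells weighted equally.

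The members differed among themselves in Sertoli cells between 9 and 14 dpp. Ube2c was at 98.9 CPM at 9 dpp and 14.97 at 14 dpp, Plk1 at 22.7 and 2.91, Aurkb at 19.0 and 3.44, and Cenpa at 71.2 and 15.8. In contrast 4 mitosis genes were not lower at 14 dpp: Bub1 (10.3 and 17.9 CPM), Cdk1 (102 and 114 CPM), Tpx2 (78.3 and 83.2 CPM) and Kif23, a kinesin of the midbody (41.6 and 46.3 CPM). With the germ marker amount subtracted all 4 were lower, at 95.9 and 92.4 CPM for Cdk1, 71.9 and 66.0 for Tpx2 and 35.8 and 31.3 for Kif23, with nothing left of Bub1 at 14 dpp. Whether reads of other transcripts were counted for Cdk1, Tpx2 and Kif23 was not tested. The share of thinned Sertoli cells with a Cdk1 UMI was 13.6% (11.4 to 16.1%) at 9 dpp and 20.6% (17.9 to 23.5%) at 14 dpp, while for Ube2c it was 10.3% (8.36 to 12.6%) and 2.76% (1.76 to 4.12%). In the cultures, 3.87% and 6.26% of Sertoli cells had a Cdk1 UMI after 2 and 7 days.

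Germ cell markers were also found in the Sertoli class. Summed over the 17 markers, Sertoli cells had 295 CPM after 2 days of culture, 415 after 7 days, 338 at 9 dpp and 1279 at 14 dpp, against 6155 to 12174 CPM in germ cells. If those marker UMIs brought mitosis UMIs along at the ratio of the germ cells of the same library, they would carry 57.2% of the Sertoli mitosis sum after 2 days of culture, 52.9% after 7 days, 19.7% at 9 dpp and 88.4% at 14 dpp. Without that amount the mitosis sum was 77.7, 110, 669 and 57.7 CPM, and the log2 ratio was -3.11 for the 2-day pair and 0.93 for the 7-day pair, where its sign turned. For replication genes the amount was 21.5%, 20.3%, 25.8% and 89.5% of the sum in the same order. At 9 dpp all 22 mitosis genes exceeded the level at the germ ratio, and in the 2-day culture 20 did, with medians over all 22 of 4.39 and 1.74 times. In the 7-day culture 16 did, with a median of 1.31 times. At 14 dpp 4 did: Cdk1 by 5.20 times, Tpx2 by 4.84 times, Kif23 by 3.08 times and Birc5 by 1.03 times. The median of the 22 genes there was 0.66 times the level at the germ ratio. Of the 12 replication genes 5 exceeded that level at 14 dpp, and all did in the other libraries. What was left at 14 dpp thus adds up values above and below 0, such as 92.4 CPM for Cdk1 and -28.0 CPM for Cenpf. Ratios that use it are not ratios of levels.

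**Figure D3:**
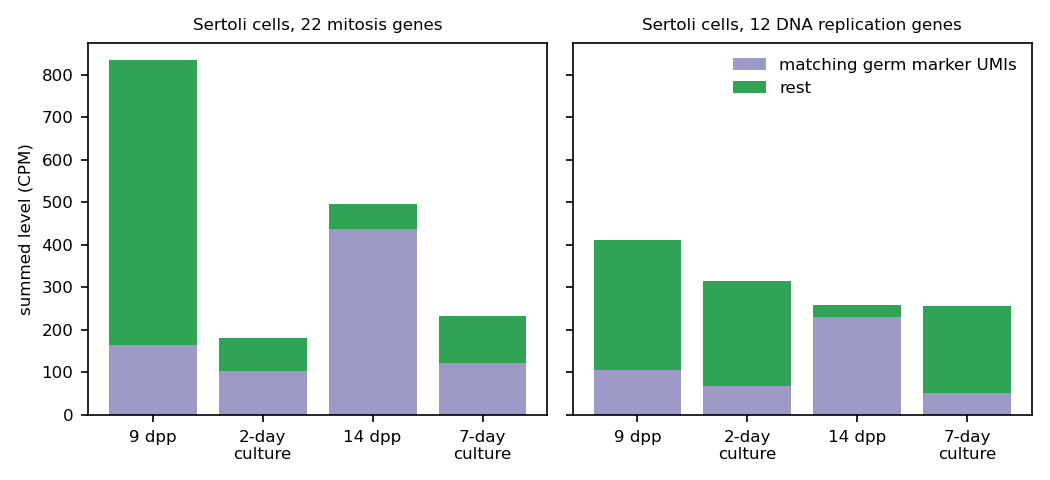
Summed level (CPM) of the 22 mitosis genes (left) and 12 replication genes (right) in Sertoli cells of each library, split into the level that the germ marker UMIs found there would carry at the ratio of germ cells (purple) and the rest (green). The rest of the mitosis sum is 669 CPM at 9 dpp and 57.7 to 110 CPM in the other 3 libraries.

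How the mitosis UMIs were spread over Sertoli cells also differed. After thinning, 22.7% of cells at 9 dpp (194 of 853; 19.97 to 25.7%) and 22.7% at 14 dpp (189 of 832; 19.9 to 25.7%) had at least 2 mitosis UMIs, against 3.87% after 2 days of culture (28 of 723; 2.59 to 5.55%) and 8.81% after 7 days (45 of 511; 6.5 to 11.6%). Without thinning these shares were 71.4%, 73.4%, 21.2% and 50.6%. Cells with 5 or more mitosis UMIs were 82 of 853 at 9 dpp (9.61%; 7.72 to 11.8%), but 8 of 832 at 14 dpp (0.96%), 2 of 723 after 2 days of culture (0.28%) and 2 of 511 after 7 days (0.39%). The 2 uncultured libraries were alike at the lower threshold, and 9 dpp stood apart at the higher one. At the germ ratio, germ markers would carry 88.4% of the mitosis sum at 14 dpp and 19.7% at 9 dpp. In the cultures this was 57.2% after 2 days and 52.9% after 7 days. The part of this in the shares of cells was not tested. The tenth of Sertoli cells with most mitosis UMIs held 65.1% of them at 9 dpp and 37.2% at 14 dpp. Thinning left out 423 Sertoli cells of the 2-day culture as too shallow, and 14 to 69 in the other libraries.

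**Figure D4:**
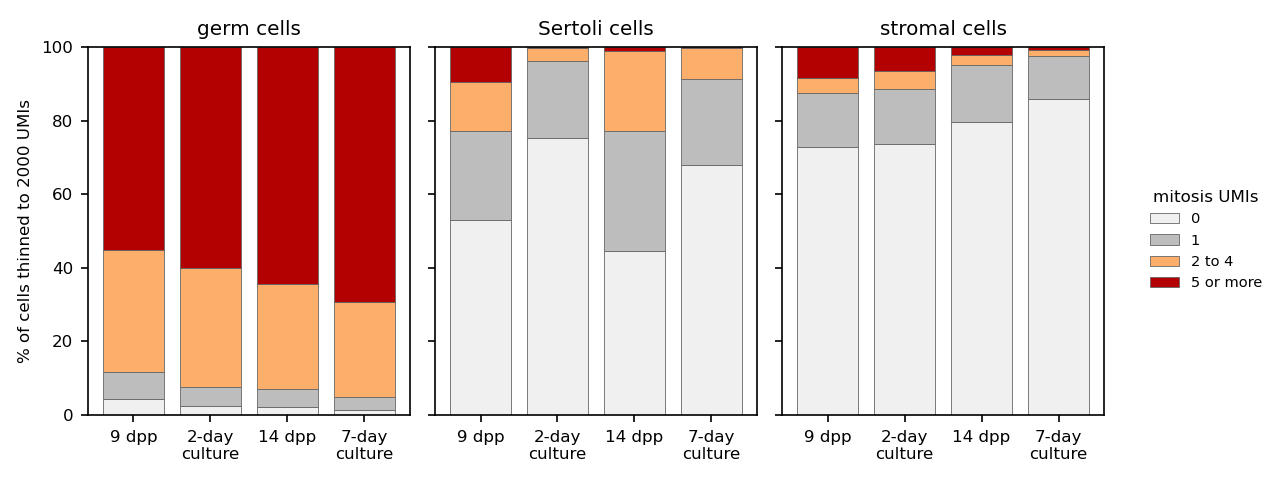
Share of germ, Sertoli and stromal cells with 0, 1, 2 to 4 or 5 or more UMIs of the 22 mitosis genes after thinning each cell to 2000 UMIs. Sertoli cells with 5 or more are 9.61% at 9 dpp and 0.28% to 0.96% elsewhere, and stromal cells with 5 or more are 8.53% at 9 dpp, 6.64% after 2 days of culture, 2.25% at 14 dpp and 0.79% after 7 days of culture.

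Stromal cells, the fibroblast and myoid cells around the tubules, differed more with time than between culture and testis in the mitosis sum. The log2 ratio of their mitosis sum was -1.52 from 9 to 14 dpp (-1.59 to -1.44) and -1.81 from 2 to 7 days of culture (-1.90 to -1.73), and all 22 mitosis and all 12 replication genes were lower in both. Between culture and testis it was -0.44 after 2 days (-0.48 to -0.40) and -0.74 after 7 days (-0.84 to -0.64). With cells weighted equally these 2 ratios were -0.62 and -1.09, and that from 2 to 7 days of culture was -2.03. For the replication sum the ratios of culture to testis were -0.45 (-0.51 to -0.40) and -0.54 (-0.64 to -0.43). In the 2-day pair 1 of 34 members, Mki67, was at least 2-fold lower, against 6.97% of 11332 genes, and none was higher, against 5.74%. That share is below the background. With TMM scaling, which raised all stromal ratios of this pair by 0.15, 27 of the 34 members and not 32 stayed below 0. In the 7-day pair 7 of 30 members with enough UMIs were at least 2-fold lower (Ube2c, Tpx2, Nusap1, Hmmr, Melk, Mcm5 and Rrm2), against 4.06% of 10387 genes, and none was higher, against 4.43%. With 10 added to CPM in place of 1 none of them passed. Aurka, Bub1, Bub1b and Kif11 had too few UMIs to count. The myoid markers of this mixed class differed too: all 6 were lower in the culture of both pairs, and their sum was 2912 CPM after 2 days of culture, 4550 after 7 days, 8148 at 9 dpp and 11110 at 14 dpp, with Acta2 at 2264, 3797, 6781 and 9105 CPM. Of the 9 fibroblast markers 1 was lower in both pairs, and their sum was 9982 to 11948 CPM. The part of this in the mitosis ratios was not tested.

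Top2a in stromal cells had 41.8 CPM after 2 days of culture, 18.1 after 7 days, 83.6 at 9 dpp and 36.5 at 14 dpp. Its log2 ratio was -0.98 in both pairs. Nusap1, which bundles spindle microtubules near chromatin, had 38.2, 8.45, 76.1 and 22.5 CPM in the same order, and Cenpf, a kinetochore protein, had 32.4, 13.8, 54.2 and 23.8 CPM. Mki67 had 17.5, 11.6, 44.0 and 18.7 CPM. In contrast Cdk1, at 101, 36.6, 109 and 51.0 CPM, and Plk1, at 27.2, 5.19, 25.4 and 5.10 CPM, were near their age match in the 2-day pair. Of the replication genes, the helicase subunits Mcm5, Mcm6 and Mcm3 had the largest smaller ratio of both pairs. Mcm5 had 20.2 CPM after 2 days of culture, 7.41 after 7 days, 35.2 at 9 dpp and 18.5 at 14 dpp. Mcm6 had 56.4, 28.9, 87.0 and 44.0 CPM and Mcm3 had 21.9, 14.2, 37.6 and 21.5 CPM. Gmnn (0.12 in the 2-day pair) and Pcna (0.01 in the 7-day pair) were the replication genes not below 0, and Plk1 the only mitosis gene (0.10 and 0.02).

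Mitosis UMIs of stromal cells sat in few cells. The tenth of cells with most of them held 80.4% to 87.4% of all mitosis UMIs in the 4 libraries. Cells with at least 2 were 12.6% at 9 dpp (10.9 to 14.5%), 11.3% after 2 days of culture (9.99 to 12.7%), 4.91% at 14 dpp (3.64 to 6.45%) and 2.31% after 7 days of culture (1.59 to 3.25%). The intervals of 9 dpp and the 2-day culture overlap, while those of 14 dpp and the 7-day culture do not. Germ markers would carry 3.2% to 14.0% of the stromal mitosis sum at the germ ratio.

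In germ cells both lists were close to their age match. For the mitosis sum the log2 ratio was 0.11 after 2 days (0.09 to 0.13) and 0.14 after 7 days (0.12 to 0.15), and for the replication sum 0.13 (0.11 to 0.15) and -0.18 (-0.20 to -0.16). No member of the 34, all with enough UMIs, was 2-fold apart in either pair. Over all genes 3.43% were at least 2-fold lower and 1.29% higher in the 2-day pair, with 2.41% and 0.784% for the 7-day pair. Bub1 had the highest 2-day ratio, with 187 CPM in culture against 107 at 9 dpp, and 189 against 165 CPM in the 7-day pair (log2 0.80 and 0.20). Cenpe, the motor that draws chromosomes to the spindle equator, had 178 against 157 CPM and 207 against 174 CPM. Plk1 was lower in culture in both, at 72.3 against 92.3 and 68.1 against 75.3 CPM, as was Mcm7, at 190 against 231 and 164 against 206 CPM. Mki67 had 59.98 CPM after 2 days of culture, 95.4 after 7 days, 65.8 at 9 dpp and 87.9 at 14 dpp, Top2a had 321, 401, 286 and 391 CPM, and Cdk1 had 128, 235, 120 and 166 CPM. These 3 genes were higher in both later libraries than in both earlier ones. Pcna differed by 0.05 and 0.07 and Mcm5 by -0.03 and -0.19.

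The make-up of the germ class, as called by markers, differed between the groups. Cells were placed by stage markers that are no members. Spermatogonia were 50.7% of germ cells at 9 dpp, 13.2% after 2 days of culture, 27.2% at 14 dpp and 14.0% after 7 days of culture. Cells led by Stra8, which marks entry into meiosis, were 16.7%, 33.6%, 17.2% and 17.2%, and prophase cells 4.66%, 15.95%, 24.1% and 32.4%. Between 27.4% and 37.1% of germ cells had no stage, and pachytene cells numbered 6, 2, 149 and 153. Stages were called without thinning. The median depth of a germ cell was 11000.5, 3566, 6815 and 6459.5 UMIs in the same order of libraries. Spermatogonia markers had a mean of 737 CPM over germ cells, and prophase markers 3154 CPM. The part of depth in these shares was not tested. Within spermatogonia the mitosis sum was 2662 CPM after 2 days of culture (2588 to 2737) against 2738 at 9 dpp, and 3113 after 7 days (3056 to 3171) against 3082 at 14 dpp. In prophase cells it was 3443 against 4062 CPM and 3619 against 4080 CPM. The replication sum of prophase cells was 1538 against 1752 CPM and 800 against 1232 CPM, lower in both cultures. Other stages differed in direction. The replication sum of spermatogonia was 2203 CPM after 2 days of culture (2136 to 2272) against 1814 at 9 dpp, but 1727 after 7 days against 1824 at 14 dpp. The mitosis sum of Stra8 cells was 3374 against 3325 CPM and 3448 against 2767 CPM, and that of pachytene cells 2600 against 2258 CPM in the 7-day pair.

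Across stages the lists parted. From spermatogonia to prophase the mitosis sum was higher in all 4 libraries, by 0.22 to 0.57 on the log2 scale, and the replication sum was lower after 2 days of culture (-0.52), after 7 days (-1.11) and at 14 dpp (-0.57), while at 9 dpp its interval spanned 0 (-0.05; -0.13 to 0.03). The 9 dpp value rests on 117 prophase cells. Of the 22 mitosis genes 5 were higher in prophase in every library, 7 were lower in every library and 10 were mixed. The intervals lay wholly above 0 in all 4 libraries for those 5, and wholly below 0 for 3 of the 7. Of the 12 replication genes Pcna and Rrm2 were higher in every library, with Rrm2 at 0.03 in the 7-day culture, 7 were lower and 3 (Mcm5, Mcm6 and Rrm1) were mixed. The intervals of Pcna, and of 4 of the 7, excluded 0 in all 4 libraries.

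Bub1 stood out among the genes higher in prophase. It had 73.9 CPM in spermatogonia and 536 in prophase at 9 dpp, 92.7 and 640 after 2 days of culture, 82.4 and 435 at 14 dpp, and 75.4 and 364 after 7 days of culture, log2 ratios of 2.27 to 2.86. Bub1 is known to guard sister centromeres through Sgo proteins, also in meiosis. Top2a (log2 0.94 to 1.91), Nusap1 (0.61 to 1.61), Hmmr (0.76 to 1.18) and Tpx2 (0.50 to 1.24) were the others.

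The mitosis genes lower in prophase were led by Aurkb, the kinase of the chromosome passenger complex, and Cenpa. Aurkb had 93.4 and 24.3 CPM at 9 dpp, 95.9 and 13.8 after 2 days of culture, 90.9 and 29.6 at 14 dpp, and 84.8 and 10.6 after 7 days of culture. Cenpa had 327 and 206, 353 and 103, 334 and 150, and 349 and 48.4 CPM in the same order. Bub1b was also lower in every library (log2 -2.44 to -0.66). Plk1, Knstrn, Ube2c and Cenpe had ratios below 0 in every library, but at 9 dpp their intervals spanned 0 (Plk1 -0.25, Knstrn -0.06, Ube2c -0.22 and Cenpe -0.30). Among replication genes Cdt1, the loader of the helicase, had 109 and 31.04 CPM at 9 dpp, 161 and 14.6 after 2 days of culture, 92.5 and 16.97 at 14 dpp, and 104 and 10.4 after 7 days of culture. Tyms (log2 -3.40 to -1.49) and Mcm2 (-3.01 to -1.35) were lower by a like amount and Mcm7 by less. For Gmnn, Mcm3 and Mcm4 the 9 dpp intervals spanned 0 (log2 -0.17, -0.21 and -0.34).

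Cdc20 and Aurka changed side with age, and Cdk1 did between the cultures. In prophase against spermatogonia Cdk1 had 104 against 110 CPM at 9 dpp (log2 -0.09; -0.43 to 0.24) and 81.7 against 113 after 2 days of culture, but 260 against 130 at 14 dpp and 366 against 130 after 7 days. Cdc20 had 236 against 304 and 160 against 244 CPM in the earlier libraries, and 399 against 311 and 652 against 268 in the later ones. In pachytene cells Cdc20 had 519 CPM at 14 dpp and 745 after 7 days of culture. Rrm2 had 84.8 CPM in spermatogonia, 352 in Stra8 cells and 282 in prophase at 9 dpp, and 78.2, 434 and 166 CPM at 14 dpp. After 2 days of culture it had 68.3, 258 and 272 CPM, and after 7 days 63.5, 276 and 65.0 CPM. Stra8 cells were thus above spermatogonia in all 4 libraries and above prophase cells in all but the 2-day culture. In pachytene cells Rrm2 had 14.0 CPM at 14 dpp and 7.41 after 7 days of culture.

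**Figure D5:**
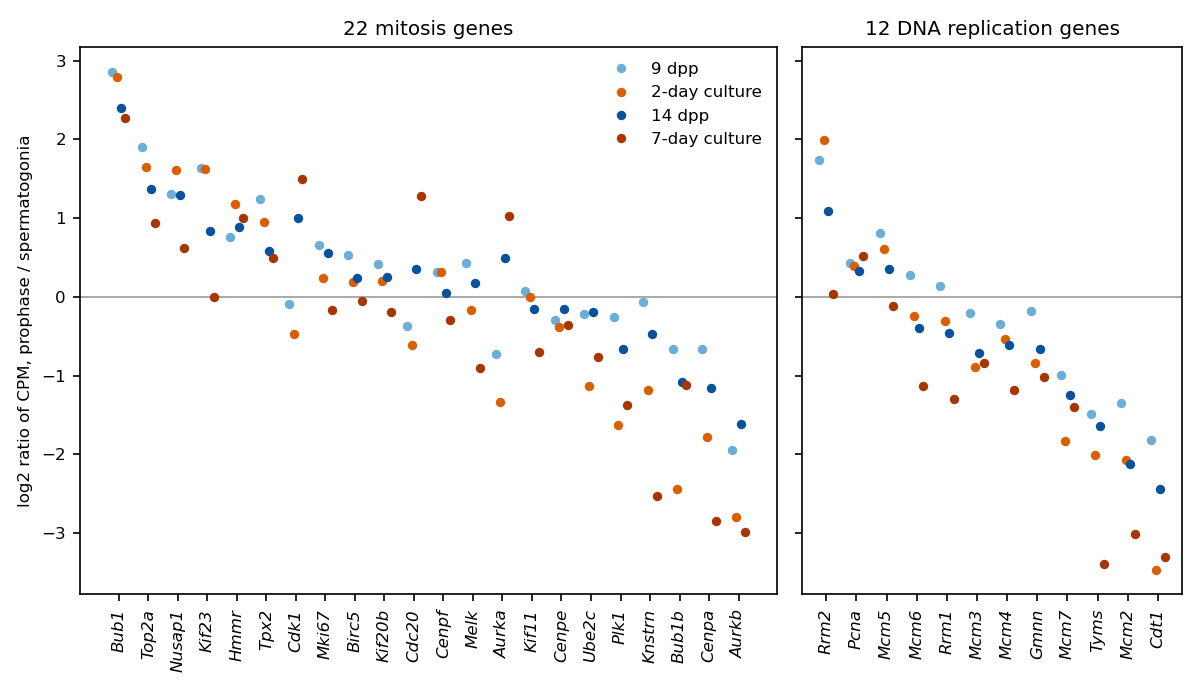
Log2 ratio of CPM in prophase over spermatogonia for the 22 mitosis genes (left) and 12 replication genes (right), ordered by their mean over the 4 libraries; each point is a library. Bub1 lies at 2.27 to 2.86 in all 4, and Cdk1 lies below 0 in the 2-day culture, near 0 at 9 dpp (-0.09, with an interval that spans 0) and above 0 at 14 dpp and in the 7-day culture.

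Leydig cells, the steroid makers of the testis, were few, and 1 cell held 29.2% to 55.1% of their mitosis UMIs in each library. The mitosis sum was 477 CPM after 2 days of culture (41 cells), 744 after 7 days (34 cells), 182 at 9 dpp (38 cells) and 363 at 14 dpp (27 cells). The log2 ratios were 1.39 and 1.04, and those of the replication sum 0.49 and -1.18. Of the 34 members 4 had at least 50 UMIs over the 2-day pair and 1, Ube2c, over the 7-day pair. In the 2-day pair these were Cdk1, at 95.5 CPM in culture (35 UMIs) against 37.8 at 9 dpp (22 UMIs), Rrm2, at 101 (37 UMIs) against 24.1 (14 UMIs), Mcm6 and Pcna. Ube2c had 21.8 CPM after 2 days of culture (8 UMIs), 5.16 at 9 dpp (3 UMIs), 117 after 7 days (43 UMIs) and 16.5 at 14 dpp (7 UMIs). In the same order Cdc20 had 16, 2, 24 and 12 UMIs and Cenpa 7, 5, 29 and 10, too few to count. With the stricter class share the mitosis ratios were 4.50 and -1.07, the second with its sign turned, and the 2-day replication ratio turned to -0.26. With a stricter cell filter the mitosis ratios were 2.16 and 1.59. Of the replication genes Mcm6 had 19 UMIs after 2 days of culture, 37 at 9 dpp, 8 after 7 days and 39 at 14 dpp, and Pcna 19, 32, 4 and 16. In CPM these were 51.8, 63.6, 21.7 and 91.8 for Mcm6 and 51.8, 55.0, 10.9 and 37.7 for Pcna, and no replication gene reached 50 UMIs in the 7-day pair.

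Over all kept cells no member was 2-fold apart in either pair, against 3.76% of genes lower and 4.57% higher after 2 days, and 2.89% and 3.88% after 7 days. TMM scaling adds 0.14 to the 2-day ratios over all cells. The mitosis sum differed by -0.40 (-0.41 to -0.38) and -0.06 (-0.08 to -0.05), and the replication sum by -0.28 (-0.29 to -0.26) and -0.26 (-0.28 to -0.24). Germ cells were 41.0% of kept cells after 2 days of culture, 48.7% at 9 dpp, 53.0% after 7 days and 58.8% at 14 dpp, and their part in these sums was not tested. By gene, Nusap1 (log2 -0.65 and -0.45), Aurkb (-0.47 and -0.43) and Tpx2 (-0.43 and -0.30) were lower in both pairs, as were Mcm7 (-0.58 and -0.35), Mcm5 (-0.50 and -0.34) and Mcm2 (-0.48 and -0.32).

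Other genes of the cycle were taken from 4 lists. For these genes, apart from Cdkn2a, the level that germ markers would bring along was not worked out. In Sertoli cells those markers had 415 CPM after 7 days of culture and 1279 CPM at 14 dpp. Their part in the Sertoli ratios of the 7-day pair was thus not tested. In Sertoli cells 31 of 37 other mitosis genes were at least 2-fold lower in the 2-day pair, and 8 of the 35 with enough UMIs in the 7-day pair, against 6.06% and 7.91% of all genes. Racgap1, which drives cytokinesis with Kif23, had 8.44 CPM after 2 days of culture, 24.6 after 7 days, 87.0 at 9 dpp and 107 at 14 dpp, and whether reads of other transcripts were counted for it was not tested either. Nuf2 of the kinetochore had 1.45, 1.69, 12.5 and 8.54 CPM and the kinase gene Pbk 11.9, 12.1, 74.2 and 31.9 CPM. Pttg1, securin, was higher in culture at 126 against 79.0 and 112 against 48.5 CPM, and is named after its values were seen. Of these genes 1 of 37 had a ratio above 0 in the 2-day pair and 2 of 35 in the 7-day pair. Of other S phase genes 5 of 25 and 4 of 23 were at least 2-fold lower in Sertoli cells, against the same shares, and Usp1 was higher in the 7-day pair. Tk1 was lowest in the 2-day pair (log2 -1.41) and Hells in the 7-day pair (-1.41), and Exo1 was past 2-fold in both (-1.13 and -1.09). Clspn (-0.85 and -1.28) and Chaf1b (-0.70 and -1.32) were so in the 7-day pair. In stromal cells 3 of 37 and 5 of 27 other mitosis genes were that much lower, against 6.97% and 4.06% of all genes, and Pttg1 was higher in the 7-day pair. Anln (-1.01 and -1.29) was past 2-fold in both pairs, Sgo1 (-1.05) in the 2-day pair and Prc1 (-1.50) in the 7-day pair. Prc1 had -0.96 in the 2-day pair, and Sgo1 had too few UMIs in the 7-day pair. Of other S phase genes 1 of 24 and 1 of 21 were at least 2-fold lower there, near or below those shares, with ratios of -0.49 and -0.94 for Hells, -0.49 and -0.48 for Uhrf1 and -0.52 and -0.48 for Prim1.

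In germ cells none of the 37 other mitosis or 25 other S phase genes was 2-fold apart in either pair, where 0.784% to 3.43% of all genes were in 1 direction. Pttg1 (124 against 228 CPM, and 126 against 194.5) and Sgo1 (39.7 against 61.3, and 37.8 against 56.8) were lower in culture, and Smc4 of condensin was higher (566 against 385, and 1077 against 804). Pola1, the catalytic subunit of polymerase α, was lower (log2 -0.78 and -0.77), and Dtl (0.40 and 0.55) and Nasp (0.30 and 0.33) were higher.

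Among cycle inhibitors, Cdkn2a, which encodes p16 and p19Arf, was lower in cultured germ cells of both pairs. It had 23.2 CPM after 2 days of culture, 14.8 after 7 days, 136 at 9 dpp and 203 at 14 dpp (log2 -2.50 and -3.69). In Sertoli cells its 0.87, 1.08, 7.32 and 12.9 CPM came from 6 to 147 UMIs a library. The germ marker UMIs there would bring 0.74, 0.51, 7.46 and 27.0 CPM along at the germ ratio, close to or above the Sertoli level in all but the 7-day culture. Stromal cells had 4 to 25 UMIs, under the minimum in both pairs. Cdkn2b, the neighbour that encodes p15, was higher in cultured stromal cells, at 11.4 against 1.01 CPM and 6.96 against 1.91 CPM (log2 2.62 and 1.45). Gadd45a, a stress response gene, was higher there too, at 66.5 against 12.6 and 60.5 against 24.0 CPM, and in Sertoli cells by log2 0.67 and 0.64. Cdkn2d was lower in cultured Sertoli cells (log2 -0.99 and -1.16) and higher in cultured germ cells (0.82 and 0.46), and Cdkn1b was lower in germ cells (-0.73 and -0.45). The part of germ markers in the Sertoli ratios of Cdkn2d was not tested. Cdkn1a, p21, had ratios of 2.07 and -1.18 in Sertoli cells, 1.94 and -0.22 in stromal cells and -1.20 and 0.01 in germ cells, so its side differed between classes and pairs, while over all cells they were 1.40 and 0.64. Of the 12 inhibitors 2 were at least 2-fold lower and 2 higher in Sertoli cells of the 2-day pair (11 with enough UMIs), and 4 lower and 1 higher in the 7-day pair (10). In stromal cells 2 were lower and 3 higher (11), and 0 lower and 2 higher (9), and in germ cells 2 and 1 were lower and none higher (11 and 12). Over all genes the shares lower and higher were 6.06% and 6.1% in Sertoli, 6.97% and 5.74% in stromal and 3.43% and 1.29% in germ cells in the 2-day pair, and 7.91% and 8.53%, 4.06% and 4.43%, and 2.41% and 0.784% in the 7-day pair.

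Among cycle regulators, the transcription factor gene Myc was higher in cultured Sertoli cells. It had 18.8 CPM after 2 days of culture, 9.37 after 7 days, 1.01 at 9 dpp and 0.44 at 14 dpp, from 129, 61, 15 and 5 UMIs (log2 3.30 and 2.85). Ccne2, cyclin E2, was lower in culture in Sertoli cells (log2 -1.11 and -1.70) and stromal cells (-1.53 and -1.82). Lin9, a subunit of the complex that binds CHR elements, was lower in Sertoli cells (-0.81 and -0.92), and E2f7 (-1.18 and -0.94) and E2f8 (-0.60 and -1.71) in stromal cells, the last 2 genes from 1 to 40 UMIs a library and under the minimum in the 7-day pair. In germ cells Mycn (-1.51 and -0.83), Ccnd1 (-0.97 and -0.54) and Ccnd3 (-0.52 and -0.69) were lower in culture. Of the 16 regulators 3 were at least 2-fold lower and 1 higher in Sertoli cells of the 2-day pair (13 with enough UMIs), and 2 lower and 2 higher in the 7-day pair (11). In stromal cells 4 of 15 and 1 of 10 were lower, and in germ cells 1 of 15 in each pair. The shares over all genes given for the inhibitors are the background here too.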

How the data were processed

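Droplet libraries of dissociated testis, made with a 3′ v2 kit per the labels, gave the deposited matrices of raw UMI counts per gene and cell barcode. The labels' library text also names female gonads and gonad cells made from ES cells, against the tissue label of testis; this conflict was not resolved. Per the file headers and the submitters' processing notes the authors made these counts with Cell Ranger 3.0.2, and the notes name mm10; the annotation is not given in the sources used here. A barcode was kept with 500 or more genes and no more than 20% of its UMIs mitochondrial, and Scrublet calls (scanpy 1.11.5, expected rate 0.06; 1.89% to 3.55% of barcodes) were removed. A cell took a class when it had at least 5 UMIs from at least 2 markers and at least 80% of its marker UMIs came from that class. Both cuts were set after the markers' counts were seen. Such classes hold cells by their leading markers and are no proof of purity. A germ cell took the stage whose marker list was highest relative to its mean over germ cells, with at least 2 UMIs and 50% of the summed relative levels. The UMIs had to come from at least 2 markers of the list, except for the Stra8 list, where any marker was enough.

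UMIs were summed per class and library. Single genes are compared as log2(CPM + 1) and lists as ratios of summed CPM with exact conditional binomial intervals, CPM with exact Poisson intervals and shares with Clopper-Pearson intervals at 95%. A member counted as lower or higher when it differed at least 2-fold and had at least 50 UMIs over both libraries. With 1 library per group no test was run. Ratios, calls, thinning and classes were tested on simulated data. TMM factors came from edgeR 4.0.16. Values in every library were planned for Mki67, Top2a, Cdk1 and, per list and class, up to 3 genes whose ratios had one sign over both pairs, ranked by the smaller of the 2 ratios; other genes named were chosen after their values were seen. Members, lists and markers were chosen with earlier results of these data known. Pcna and Tyms have pseudogene copies in GENCODE M21, and Cdt1 and Rrm1 overlap a predicted gene on their strand, so their counts may be split. Alternatives were TMM scaling, equal weight per cell, a stricter cell filter, a stricter class share (95%), doublet calls kept, other constants and UMI minima, and other thinning. Subtracting the germ share and the minimum of 5 mitosis UMIs were chosen after seeing the data.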

Additional observations from a re-analysis of the deposited data

Results flagged for a closer look

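In 3 cases a sum went one way in one comparison and the other way in a second. In Sertoli cells the mitosis sum was lower at 14 dpp than at 9 dpp by a log2 ratio of -0.75, while it was higher in the 7-day than in the 2-day culture by 0.36. In germ cells the replication sum was higher in the 2-day culture than at 9 dpp by 0.13 and lower in the 7-day culture than at 14 dpp, at -0.18. In Leydig cells it was at 0.49 in the first of these pairs and at -1.18 in the second, from 27 to 41 cells a library; with the stricter class share the first was -0.26, and both went the same way. With 1 library per group, none of these differences was tested.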

How the results depend on the processing

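No paired analysis was possible because each group had 1 library. Of 216 values recomputed for the sums, counts, shares and promoters, 143 stayed within the counting interval or 1.5 times the count, 69 moved and 4 turned, and of 720 for single genes 630 stayed, 87 moved and 3 turned. All ratios are log2. With the germ share subtracted, the Sertoli mitosis sum of the 7-day pair turned from -1.09 to 0.93. It was -3.11 in the 2-day pair, -3.54 from 9 to 14 dpp and 0.50 between cultures. The replication sum was then -0.30 and 2.92 in the pairs of 2 and 7 days. The 14 dpp sums left in this way add up values above and below 0. With a class share of 95%, Leydig cells gave 4.50 and -1.07 (reversed) for mitosis in the pairs of 2 and 7 days and -0.26 (reversed) for replication in the 2-day pair. Sertoli cells then gave -2.35, -0.87 and, from 9 to 14 dpp, -1.20 for mitosis and -0.46 and 0.34 for replication, stromal cells -0.97 in the 7-day pair and -2.09 between cultures, and germ cells 0.11 for mitosis in the 7-day pair and 0.08 for replication in the 2-day pair. In the 7-day pair of Sertoli cells Mcm5, Mki67 and Rrm2 turned to 0.42, 0.02 and 0.34 under that rule. With cells weighted equally, the Sertoli mitosis sum was -1.83 and -0.94 in the pairs of 2 and 7 days, -0.87 from 9 to 14 dpp and 0.02 between cultures, and the replication sum -0.09 and 0.17. Stromal cells gave -0.62 and -1.09 and, between cultures, -2.03 for mitosis, and -0.65 for replication in the 2-day pair. Germ cells gave 0.07 and 0.12 and, between cultures, 0.20 for mitosis, and 0.07 for replication in the 2-day pair. With TMM factors, the 2-day pair gave 0.15 in germ, -2.11 in Sertoli and -0.29 in stromal cells for mitosis, and 0.17, -0.29 and -0.31 for replication; from 9 to 14 dpp mitosis was 0.20 in germ and -0.64 in Sertoli cells, and between cultures 0.19 in germ cells. With the strict cell filter (at least 1000 genes, at most 10% mitochondrial UMIs), mitosis was 0.13 in germ cells in the 2-day pair, -0.68 in Sertoli cells from 9 to 14 dpp and 2.16 and 1.59 in Leydig cells, and Leydig replication was 0.87 in the 2-day pair. With 10 added to CPM, the members at least 2-fold lower were 3 (not 6) in Sertoli cells and 0 (not 7) in stromal cells in the 7-day pair, and 0 (not 1) in stromal cells in the 2-day pair, which gave 2 with 0.1 added. The log2 ratio of the share of cells with mitosis UMIs was -2.55 and -1.37 in Sertoli, -0.16 and -1.09 in stromal and 0.07 and 0.03 in germ cells in the pairs of 2 and 7 days. Without thinning it was -1.75 and -0.54 in Sertoli cells, -0.47 in stromal cells (2-day pair) and -0.04 (reversed) and 0.00 in germ cells. With at least 1 UMI it was -0.94 and -0.79 in Sertoli and 0.03 and 0.01 in germ cells; with at least 3, -3.90 and -2.05, and 0.11 and 0.06; with at least 5, -5.12 in Sertoli cells (2-day pair), and 0.12 and 0.11 in germ cells. Thinning to 1000 UMIs gave 0.12 and 0.09 in germ cells, and with doublet calls kept the 7-day pair gave 0.01. With the 150 bases before the start alone, CHR letters were in 30% of mitosis promoters, CHR with CCAAT in 30% of mitosis and 0.0% of replication promoters, and E2F letters in 30% of replication promoters. The ratios of both sums in prophase over spermatogonia stayed within their intervals with 1 more marker UMI required. The causes of these moves were not tested. Depth limits the Leydig values and the scarce genes: members under 50 UMIs got no call.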
